A study of Mus musculus with 6 samples.

Results

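The genes described here are 10 genes of gluconeogenesis, the pathway by which hepatocytes make glucose from lactate, amino acids and glycerol. They were chosen by name, as 7 genes of enzymes and of a transporter (Pck1, Pck2, G6pc, G6pc3, Fbp1, Pcx and Slc37a4) and 3 genes of regulators (Ppargc1a, Foxo1 and Klf15), from 22180 genes measured. Earlier results of these data were known at that choice, so counts of the 10 set beside shares over all genes are descriptions only. Each name was read from a probe set that the platform annotation pairs with exactly 1 symbol. Foxo1 alone had a second such probe set, and the brighter was kept. All 10 had a mean level over the 6 arrays above the median of all genes, so a filter on dim genes removes none of them.

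Gluconeogenesis runs largely backwards along glycolysis and uses its own enzymes at the irreversible steps. Pyruvate carboxylase and phosphoenolpyruvate carboxykinase turn pyruvate into phosphoenolpyruvate, fructose-1,6-bisphosphatase passes the next barrier, and glucose-6-phosphatase in the endoplasmic reticulum releases free glucose. In liver the carboxykinase and glucose-6-phosphatase genes are controlled mainly by transcription, raised by glucagon through cAMP and CREB and by glucocorticoids and lowered by insulin through FOXO1. The bile acid receptor FXR and its target SHP have been linked to these genes.

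The cells were primary hepatocytes of wild type adult male C57Bl/6 mice, cultured without serum in William's medium. One group of 3 arrays came from cells given 2 µM GW4064, a synthetic FXR agonist, for 4 h, and the other 3 arrays came from cells given the solvent DMSO. Total RNA was labelled with biotin and hybridised to 1-colour Affymetrix MoGene-2_0-st arrays, and levels are log2 intensities after RMA. The study names 3 independent preparations, but no label says that a replicate number marks a preparation or how many mice each preparation took. The p-values therefore measure the spread between these arrays, and their number limits the precision of every value.

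Array medians spanned 0.053, and the agonist response was present, with Nr0b2, the gene of SHP, 5.18-fold higher (limma adjusted p = 1.17e-04) and Abcb11, the bile salt export pump gene, 8.47-fold higher (limma adjusted p = 3.70e-05). All 8 measured hepatocyte markers, albumin and transthyretin among them, lay above the median level of all genes, and their summed level ran from 14.57 to 14.60 (log2) in DMSO and from 14.50 to 14.56 with GW4064. Of the markers of other cells, 2 of 7 for macrophages, 4 of 6 for sinusoidal endothelium, 2 of 7 for stellate cells, 3 of 4 for cholangiocytes and 1 of 5 for leukocytes lay above that median. The summed cholangiocyte level ran from 7.63 to 7.99 in DMSO and from 7.94 to 8.42 with GW4064, and its part in the results was not tested. Sox9 was the brightest gene in that sum and changed by 0.45 (SE 0.17), whereas Krt19, Krt7 and Epcam changed by 0.11, 0.11 and 0.05. The summed macrophage level ran from 8.85 to 10.12 in DMSO and from 8.77 to 10.05 with GW4064. Its brightest gene, Cd68, was lowest in replicate 2 in both groups (8.53 and 8.46). None of the 37 markers measured passed an adjusted p of 0.05 in limma, with or without the replicate block, against 1 and 4 at an unadjusted p under 0.05. In such bulk RNA, fewer cells that carry a transcript and less of it per cell cannot be told apart.

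Pck1, G6pc, Ppargc1a and Klf15 are the members whose levels were lowest in replicate 1 and highest in replicate 3 in both groups, as described further on, and the 250 bases before their start sites are shown because these genes moved together between replicate numbers. The sequences are from RefSeq, build GRCm38.p6, on the strand of the gene. Capitals mark the letters CGTCA, the core of a cAMP response element, AGGTCA, the hexamer of nuclear receptors, and TATAAA, each searched on both strands.
Pck1, chr2:173152823-173153072, plus strand: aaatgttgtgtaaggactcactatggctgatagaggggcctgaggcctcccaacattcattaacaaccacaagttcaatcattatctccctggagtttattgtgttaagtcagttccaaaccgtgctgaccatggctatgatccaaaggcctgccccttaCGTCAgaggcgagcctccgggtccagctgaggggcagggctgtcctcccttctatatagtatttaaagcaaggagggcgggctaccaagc
G6pc, chr11:101367466-101367715, plus strand: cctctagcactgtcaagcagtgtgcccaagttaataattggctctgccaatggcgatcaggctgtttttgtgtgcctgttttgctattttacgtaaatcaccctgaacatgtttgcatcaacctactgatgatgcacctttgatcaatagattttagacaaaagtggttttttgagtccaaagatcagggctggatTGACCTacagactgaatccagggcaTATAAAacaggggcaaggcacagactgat
Ppargc1a, chr5:51567726-51567975, minus strand: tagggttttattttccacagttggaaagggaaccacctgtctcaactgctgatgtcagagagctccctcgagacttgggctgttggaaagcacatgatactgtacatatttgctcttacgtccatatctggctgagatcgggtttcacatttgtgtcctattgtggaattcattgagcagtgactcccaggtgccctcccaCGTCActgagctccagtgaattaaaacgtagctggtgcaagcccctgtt
Klf15, chr6:90462326-90462575, plus strand: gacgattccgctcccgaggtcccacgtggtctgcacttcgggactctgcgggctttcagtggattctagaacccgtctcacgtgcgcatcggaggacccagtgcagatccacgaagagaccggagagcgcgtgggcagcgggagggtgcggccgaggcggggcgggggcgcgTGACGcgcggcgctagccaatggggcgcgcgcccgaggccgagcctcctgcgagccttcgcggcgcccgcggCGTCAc
CGTCA stood at -90 to -86 from the start of Pck1, at -49 to -45 in Ppargc1a, and in Klf15 at -6 to -2 and, on the other strand, at -78 to -74. The 10 genes have 13 promoters in the table, of which 5 hold CGTCA, those of Slc37a4 being the others, and 17.8% of all 32851 promoters hold it. Of the Slc37a4 windows 2 overlap, and 1 CGTCA in the overlap is counted in both. G6pc held the receptor hexamer at -54 to -49 and TATAAA at -29 to -24. Each of these stood in 2 of the 13 promoters, the other being one of Slc37a4 in each case, and in 14.0% and 12.4% of all promoters. The full palindrome TGACGTCA, the FOXO letters TGTTTAC and the FXR inverted repeat AGGTCANTGACCT were found in none of the 13 windows, and 1.55%, 3.17% and 0.00609% of all promoters hold them. At such low shares absence from 13 windows says little, and a search for exact letters does not find variants of a site. AGAACA, the glucocorticoid receptor hexamer, stood in 1 of the 13, that of G6pc3 (16.1% of all promoters), and the GC box GGGCGG in 8 of the 13 (32.7%). A GC box in the overlap of the Slc37a4 windows is likewise counted in both. CGTCA is contained in TGACGTCA, and AGGTCA in the inverted repeat.

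Pck1 encodes the cytosolic phosphoenolpyruvate carboxykinase, which turns oxaloacetate into phosphoenolpyruvate. Its log2 levels in DMSO replicates 1, 2 and 3 were 4.44, 4.94 and 6.29, and with GW4064 they were 6.02, 7.13 and 7.91. Each GW4064 array lay above the DMSO array of the same number, but the groups overlapped, since DMSO replicate 3 lay above GW4064 replicate 1. The differences within the same-numbered pairs 1, 2 and 3 were 1.58, 2.20 and 1.63. They thus spanned far less than the levels, which ranged over 1.84 in DMSO and 1.90 with GW4064.

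On average Pck1 was 3.49-fold higher with GW4064, a log2 change of 1.80. Without the block the 95% interval was 0.61 to 2.99 and the limma adjusted p was 0.689, and with the replicate number as a block they were 1.47 to 2.13 and 0.0288. With the block Pck1 was the only one of the 10 genes past an adjusted p of 0.05, where limma called 0.0812% of all genes (0.0721% as higher). Without the block none of the 10 passed, where 0.0496% of all genes were called, and 1 was higher and 5 were lower at an unadjusted p under 0.05, where 2.6% and 3.06% of all genes were. The blocked adjusted p ran from 1.43e-06 to 0.0357 over 5 other settings, and it was 0.0970 without replicate 3, where the call was lost, against 0.0135 and 0.0211 without replicates 1 and 2. Over the settings without the block it ran from 0.381 to 1.00, with arrays or pairs left out included.

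**Figure D1:**
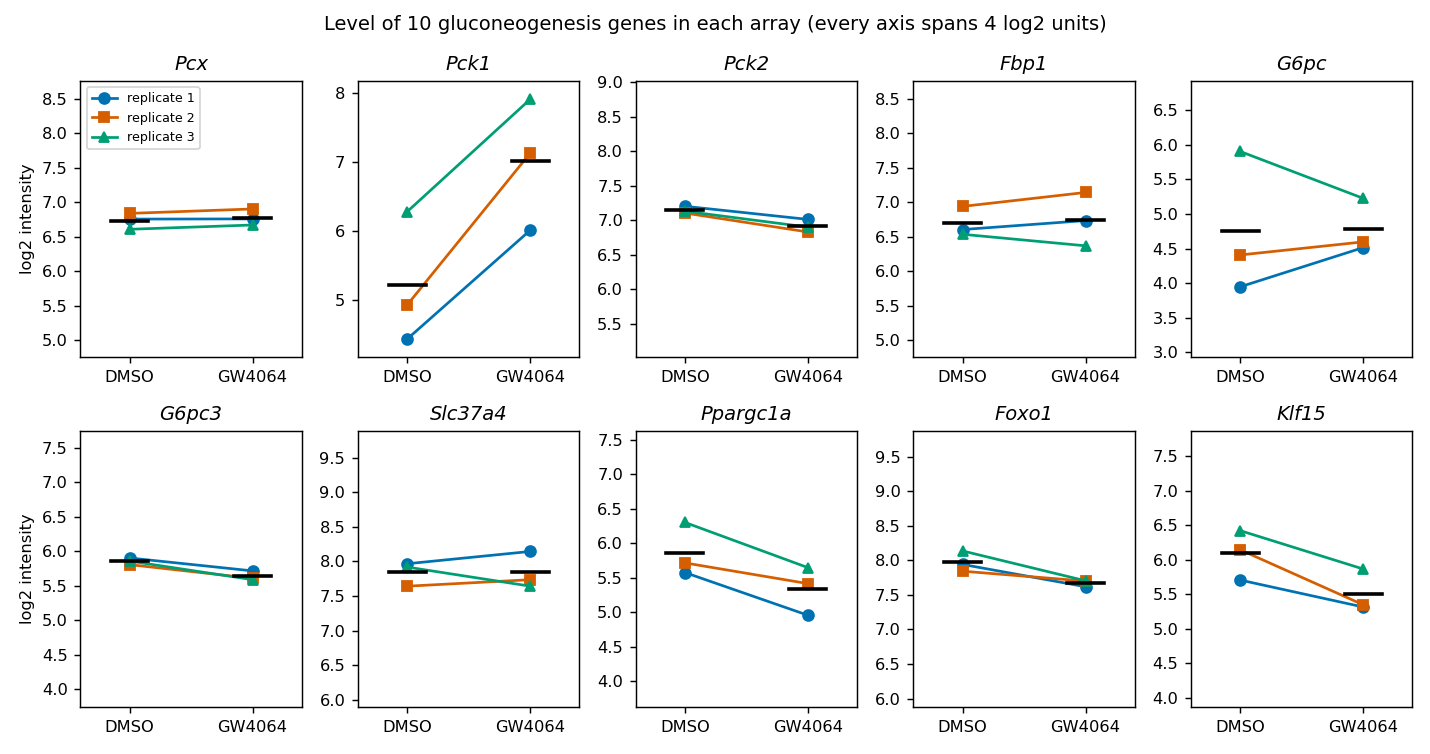
Log2 intensity of each of the 10 genes in DMSO and GW4064, with 1 marker shape per replicate number, lines joining same-numbered arrays and black bars for group means. Every axis spans 4 log2 units. The 3 lines of Pck1 run upwards side by side from different starting levels, whereas those of G6pc converge.

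Pck2 encodes the mitochondrial isoform of the same enzyme. Its log2 levels were 7.20, 7.11 and 7.13 in DMSO and 7.01, 6.83 and 6.90 with GW4064. All 3 GW4064 arrays lay below all 3 DMSO arrays, by a mean of -0.23 (SE 0.09, limma adjusted p = 0.863, and 0.480 with the block). The 95% interval was -0.44 to -0.02, opposite in sign to that of Pck1. Pcx encodes pyruvate carboxylase, the mitochondrial enzyme that supplies oxaloacetate. It lay at 6.76, 6.84 and 6.61 in DMSO and at 6.76, 6.90 and 6.67 with GW4064. The groups overlapped, and its change of 0.04 had a 95% interval of -0.20 to 0.28 (limma adjusted p = 0.998).

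Fbp1 encodes the hepatic fructose-1,6-bisphosphatase. Its levels were 6.61, 6.94 and 6.54 in DMSO and 6.74, 7.14 and 6.37 with GW4064. Pairs 1 and 2 were higher and pair 3 was lower, and replicate 2 was the highest in both groups. The change of 0.06 had a 95% interval of -0.37 to 0.49 without the block and of -0.18 to 0.29 with it (limma adjusted p = 0.998 and 0.906).

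G6pc encodes the catalytic subunit of glucose-6-phosphatase in liver. Its log2 levels were 3.95, 4.41 and 5.91 in DMSO and 4.51, 4.60 and 5.23 with GW4064. Replicate 3 was the highest in both groups, and the spread narrowed from a range of 1.96 in DMSO to 0.71 with GW4064. The pair differences were 0.57, 0.19 and -0.68, so that the pairs that were low in DMSO were higher and the pair that was high was lower. Each difference holds the DMSO level itself, so this order is not independent of that level. The DMSO replicate 1 level lay below the median level of all genes (4.20), and low levels cannot be told from background here. The mean change was 0.03, with a 95% interval of -0.95 to 1.00 (limma adjusted p = 0.999, and 0.982 with the block).

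Slc37a4 encodes the transporter that carries glucose-6-phosphate to glucose-6-phosphatase. It lay at 7.97, 7.64 and 7.92 in DMSO and at 8.15, 7.74 and 7.64 with GW4064. Pairs 1 and 2 were again higher and pair 3 lower, as in Fbp1 and G6pc. The share of all genes with this order was not counted, and the likeness of these genes was not tested. Its mean change of -0.0014 had a 95% interval of -0.34 to 0.34. G6pc3, the gene of the ubiquitous glucose-6-phosphatase, lay at 5.90, 5.81 and 5.86 in DMSO and at 5.72, 5.61 and 5.59 with GW4064. As with Pck2, the GW4064 arrays all lay below the DMSO arrays, by a mean of -0.22 (SE 0.09, limma adjusted p = 0.863, and 0.491 with the block).

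All 3 regulator genes were lower in every same-numbered pair. Ppargc1a encodes PGC-1alpha, a coactivator that drives the gluconeogenic genes in fasting. Its levels were 5.58, 5.72 and 6.30 in DMSO and 4.96, 5.42 and 5.65 with GW4064, so the groups overlapped while the pairs differed by -0.62, -0.30 and -0.65. The mean change of -0.52 had a 95% interval of -1.02 to -0.03 without the block and of -0.76 to -0.29 with it (limma adjusted p = 0.863 and 0.247). Without the block it was -0.31 when DMSO replicate 3 was left out and -0.33 when GW4064 replicate 1 was.

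Klf15 encodes a Krüppel-like factor that supports amino acid breakdown and gluconeogenesis. It lay at 5.71, 6.15 and 6.42 in DMSO and at 5.32, 5.35 and 5.87 with GW4064. DMSO replicate 1 lay below GW4064 replicate 3, and the pair differences were -0.39, -0.80 and -0.56. Its mean change of -0.58 had a 95% interval of -1.04 to -0.13 without the block and of -0.82 to -0.34 with it (limma adjusted p = 0.797 and 0.204).

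Foxo1 encodes the insulin-restrained transcription factor of the glucose production genes. Its kept probe set lay at 7.94, 7.84 and 8.14 in DMSO and at 7.62, 7.70 and 7.70 with GW4064. All GW4064 arrays lay below all DMSO arrays, with a mean change of -0.30 and a 95% interval of -0.54 to -0.06 (limma adjusted p = 0.797, and 0.427 with the block). The dimmer Foxo1 probe set overlapped between the groups and differed by -0.12 (SE 0.13), and in pair 2 it was slightly higher with GW4064.

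**Figure D2:**
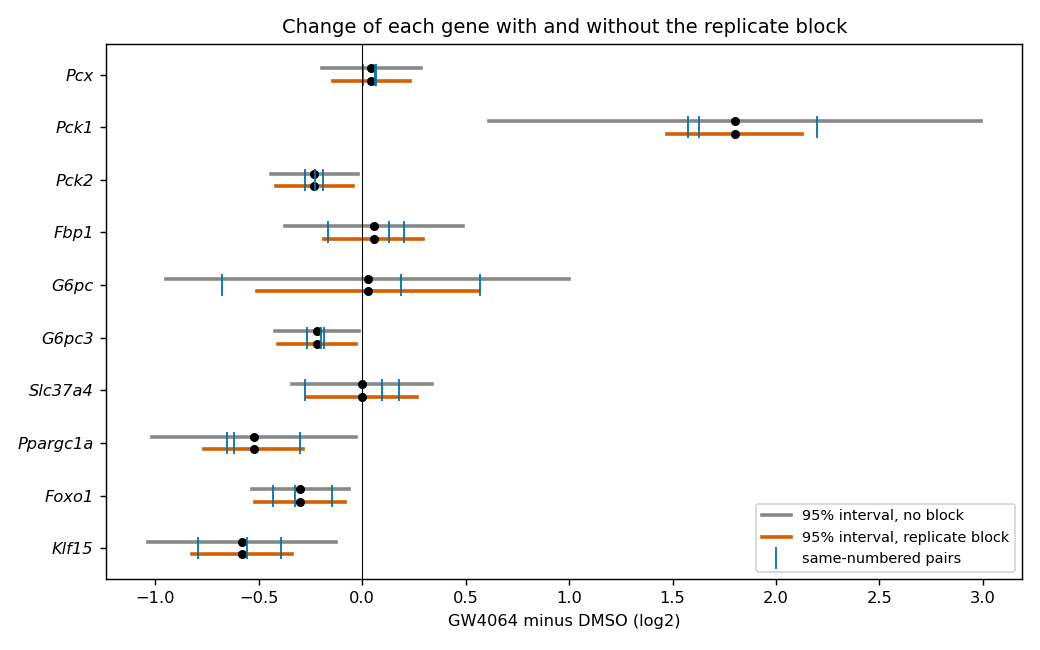
GW4064 minus DMSO on the log2 scale for each gene, with black points for means, grey and orange lines for limma 95% intervals without and with the replicate block, and blue ticks for the same-numbered pairs. The blocked interval of Pck1 is the only one that lies wholly above 0, and those of Ppargc1a, Klf15, Foxo1, Pck2 and G6pc3 lie below 0 before adjustment over all genes.

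Over the 10 genes, 4 changes were above 0 and 6 below, with a median log2 change of -0.11, where the 22180 genes had -0.02. In every same-numbered pair 2 genes were higher (Pck1 and Pcx), as 12.6% of all genes were, and 5 were lower (Pck2, G6pc3, Ppargc1a, Foxo1 and Klf15), as 18.6% of all genes were. The GW4064 arrays lay wholly below the DMSO arrays in 3 genes, Pck2, G6pc3 and Foxo1, which held for 6.19% of all genes, and wholly above in none, against 4.58%. The block left the unadjusted counts of the 10 at 1 higher and 5 lower, where 4.01% and 5.12% of all genes had an unadjusted p under 0.05. Without the block the count of 5 lower fell when single arrays were left out. It was 0 without DMSO replicate 3 (limma unadjusted p = 0.0626 to 0.144), 1 without GW4064 replicate 2, 2 without GW4064 replicate 1, 3 without DMSO replicate 1 or GW4064 replicate 3, and 4 without DMSO replicate 2. Pck1 and the 3 regulator genes thus had differences of opposite sign. The exact permutation test of Pck1 minus Ppargc1a over the 6 arrays gave a difference of changes of 2.33 (p = 0.1, two-sided), and Pck1 minus Klf15 gave 2.38 (exact p = 0.1). For Foxo1 and G6pc the difference was 2.10 and 1.78 (exact p = 0.1 each), for the remaining 5 genes it lay between 1.75 and 2.03 (exact p = 0.2), and after adjustment over the 9 differences each p was 0.2. A design of 3 against 3 arrays cannot give less than 0.1. All 9 differences were above 0 in each of the 3 pairs, but all share the Pck1 values and are not independent of each other.

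In several of these genes replicate number took as large a share of the spread as the agonist. Replicate number has more levels than treatment and so takes a larger share even where neither has an effect. The 2 shares are therefore not like for like. With the sum of squares over the 6 arrays split by treatment and replicate number, treatment took 57.2% for Pck1 and replicate number 41.4%, and the remainder was small. For Ppargc1a the shares were 43.2% and 52.8%, and for Klf15 52.9% and 42.8%. For G6pc treatment took 0.0422% and replicate number 83.0%, and for Fbp1 and Pcx replicate number took 89.2% and 93.1%. Treatment took most in G6pc3 (83.5%), Pck2 (78.5%) and Foxo1 (73.2%). The arrays of G6pc3 and Pck2 were close together within each group. Those of Foxo1 were so with GW4064, but its DMSO range of 0.29 was above the median over all genes of 0.25. The medians over all genes were 11.8% for treatment and 46.7% for replicate number. Only 4 genes of the 22180 had a larger SD over the 6 arrays than Pck1 (1.30), and 47 had a larger one than G6pc (0.69).

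**Figure D3:**
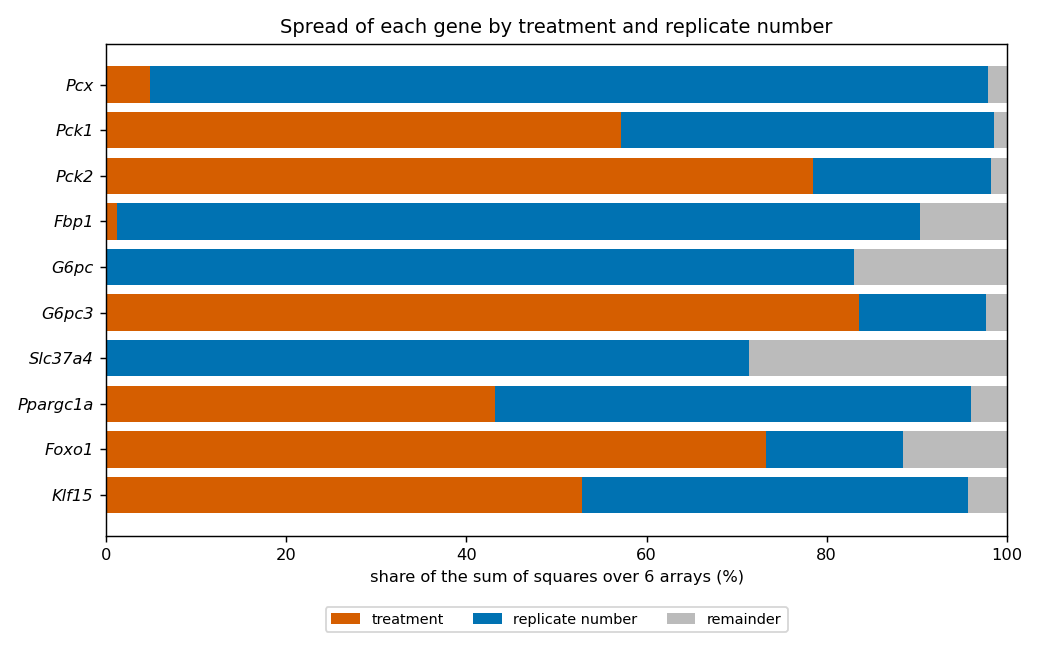
Share of each gene's sum of squares over the 6 arrays that went with treatment (orange), with replicate number (blue) and with neither (grey). Pck1, Ppargc1a and Klf15 divide between treatment and replicate number, G6pc, Fbp1, Pcx and Slc37a4 are mostly replicate number, and G6pc3, Pck2 and Foxo1 are mostly treatment.

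Of the 10 genes, 4 were lowest in replicate 1 and highest in replicate 3 in both groups, an order found in 3.47% of all genes. In DMSO the range was 3.59-fold for Pck1, 3.89-fold for G6pc, 1.65-fold for Ppargc1a and 1.64-fold for Klf15. Of the 8 measured hepatocyte markers 2 had this order, 4 (Ttr, Apoa1, Serpina1a and Fgb) were instead lowest in replicate 3 in both groups, and 2 (Alb and Apob) had neither pattern. The markers were sorted in this way after their values were seen. Tat, the tyrosine aminotransferase gene that glucocorticoids and cAMP induce, lay at 10.21, 10.37 and 11.23 in DMSO and at 10.10, 10.16 and 10.91 with GW4064. Cps1, the first enzyme gene of the urea cycle, lay at 10.06, 10.36 and 10.80 and at 9.95, 10.27 and 10.46. The part of culture state in these levels was not tested.

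Between replicate numbers Pck1 and G6pc ran in parallel in the solvent. The log2 level of Pck1 minus that of G6pc was 0.50, 0.53 and 0.38 in DMSO replicates 1, 2 and 3, an SD of 0.078. In the same arrays Pck1 minus each of the other 8 genes had an SD of 0.57 to 1.06. With GW4064 the value had an SD of 0.64 and reached 2.54 and 2.69 in replicates 2 and 3. It was higher than in DMSO by 1.01 in pair 1, 2.01 in pair 2 and 2.31 in pair 3. G6pc was singled out here after its values were seen, and the exact permutation p of this difference is given above.

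Among 50 other genes in the brighter part of the table with an SD of at least 50% of that of Pck1, Mug-ps1, a pseudogene of the murinoglobulin family, had the pattern most like that of Pck1 over the 6 arrays (Pearson r = 0.85). It was followed by Nr1i2, the gene of the xenobiotic receptor PXR (0.78), Nr0b2 (0.77), Abcb4, the phospholipid exporter gene (0.75), and Fyb2 (0.74). The least alike were Fezf1 (-0.92), Lox, the lysyl oxidase gene (-0.79), and Ces3b, a carboxylesterase gene (-0.72). Among the 10 genes themselves G6pc was the most alike (0.59) and G6pc3 (-0.86) and Pck2 (-0.85) the least. These coefficients rest on 6 arrays that share treatment and replicate number and are descriptions only. The DMSO levels of Nr0b2, 4.58, 4.49 and 4.46, lay close together, unlike those of Pck1.

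Around these genes, 102 of 112 further genes of glucose production were measured, in 8 lists. Limma called 1 of them, Nr0b2, with and without the block, and it was higher. Nr0b2 is the gene used above as a check that the agonist acted, so its call is no new result. At an unadjusted p under 0.05 there were 3 higher and 4 lower without the block, and 4 higher and 12 lower with it. As shares of the 102 these are 2.94% and 3.92% without the block, where all genes had 2.6% and 3.06%, and 3.92% and 11.8% with it, where all genes had 4.01% and 5.12%. The counts below 0 in the lists that follow have no test and no share over all genes beside them. The median log2 change of all genes was itself below 0 (-0.02), and it was -0.03 among genes at or above the median level.

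Of the paralogs 11 of 14 were below 0, with a median of -0.11. The smallest p belonged to Foxo3, a FOXO factor gene, at 6.17, 6.25 and 6.37 in DMSO and 6.15, 6.03 and 5.92 with GW4064, a change of -0.23 (SE 0.10). Ppargc1b, the gene of PGC-1beta, changed by -0.27 (SE 0.14) and Foxo6 by -0.24 (SE 0.14). All 3 were lower in each pair, as 18.6% of all genes were, and their limma adjusted p lay at 0.881 or above. They were named for the smallest p of the 14 in the fit without the block. That choice favours changes that are large beside the spread within groups, and so pairs of like sign. Foxo4, of the same family, was higher in pair 1.

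Limma called no gene of substrate entry, and at an unadjusted p under 0.05 only Aqp9 was lower, joined by Gpt2 with the block. In the list of pyruvate, lactate and alanine entry 13 of 15 genes were below 0 (median -0.09), with Gpt2, the mitochondrial alanine aminotransferase gene, at -0.21 (SE 0.13), and Slc16a1, a lactate and pyruvate carrier gene, at -0.13 (SE 0.10). In the malate-aspartate list 6 of 9 were below 0 (median -0.01), and Got1, the cytosolic aspartate aminotransferase gene, had -0.13 (SE 0.14). In glycerol entry 4 of 6 were below 0 (median -0.05). Aqp9, the hepatic glycerol channel gene, lay at 7.93, 7.85 and 8.04 in DMSO and at 7.57, 7.47 and 7.86 with GW4064. Its change was -0.31 (SE 0.12, limma adjusted p = 0.858, and 0.389 with the block).

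The steps shared with glycolysis stayed within 0.03 of 0 for Pgam1 (-0.03, SE 0.11), Tpi1 (-0.01, SE 0.11) and Pgk1 (-0.01, SE 0.15), with 3 of 4 genes below 0. Among genes of the opposing glycolytic steps 7 of 8 were below 0 (median -0.11). Pfkfb2 and Pfkfb3, which make and break fructose-2,6-bisphosphate, the inhibitor of Fbp1's enzyme, changed by -0.20 (SE 0.09) and -0.27 (SE 0.16). Gckr, which encodes the inhibitor of glucokinase, changed by -0.21 (SE 0.13).

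Hormone and nutrient signalling genes were below 0 in 13 of 16 cases (median -0.08). Txnip, a glucose-induced gene whose product restrains glucose uptake, had the largest change of the list. It lay at 6.77, 7.44 and 7.58 in DMSO and at 6.30, 6.04 and 6.92 with GW4064. The groups overlapped, and the change was -0.85 (SE 0.25, limma adjusted p = 0.739, and 0.265 with the block). Irs1, an insulin receptor substrate gene, changed by 0.26 (SE 0.12), and Trib1, a pseudokinase gene, by -0.23 (SE 0.11).

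Among 30 transcriptional regulators 19 were below 0 (median -0.05). Nr0b2 went from 4.58, 4.49 and 4.46 to 6.68, 7.11 and 6.87, well apart from DMSO in all arrays. Nr1h4, the FXR gene, went the other way, from 7.81, 7.78 and 7.73 to 7.13, 7.08 and 6.94, without overlap (change -0.72, limma adjusted p = 0.0535, and 0.0618 with the block). Hnf4a, a hepatocyte factor gene whose product binds the Pck1 and G6pc promoters, lay at 8.78, 8.99 and 8.93 in DMSO and at 9.28, 9.65 and 9.41 with GW4064. It was higher in every array, by 0.55 (SE 0.12, limma adjusted p = 0.393, and 0.151 with the block).

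**Figure D4:**
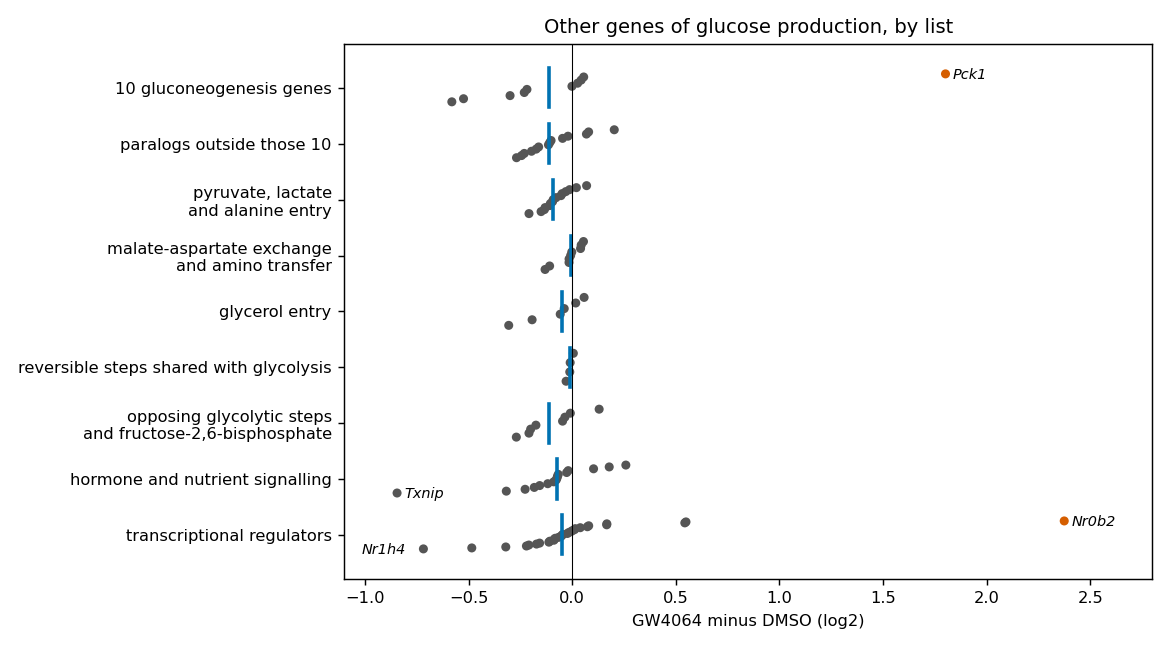
GW4064 minus DMSO on the log2 scale for every measured gene of the 10 and of the 8 other lists, 1 point per gene, with blue bars for list medians and orange points for genes with a limma adjusted p under 0.05 with the replicate block. Pck1 and Nr0b2 are the orange points, and the 8 other lists have medians between -0.11 and -0.01.

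The position of Pck1 against the threshold followed the block. Its log2 change stayed between 1.35 and 2.33 with single arrays left out and between 1.60 and 1.91 with pairs left out. No setting without the block took its adjusted p under 0.05.

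**Figure D5:**
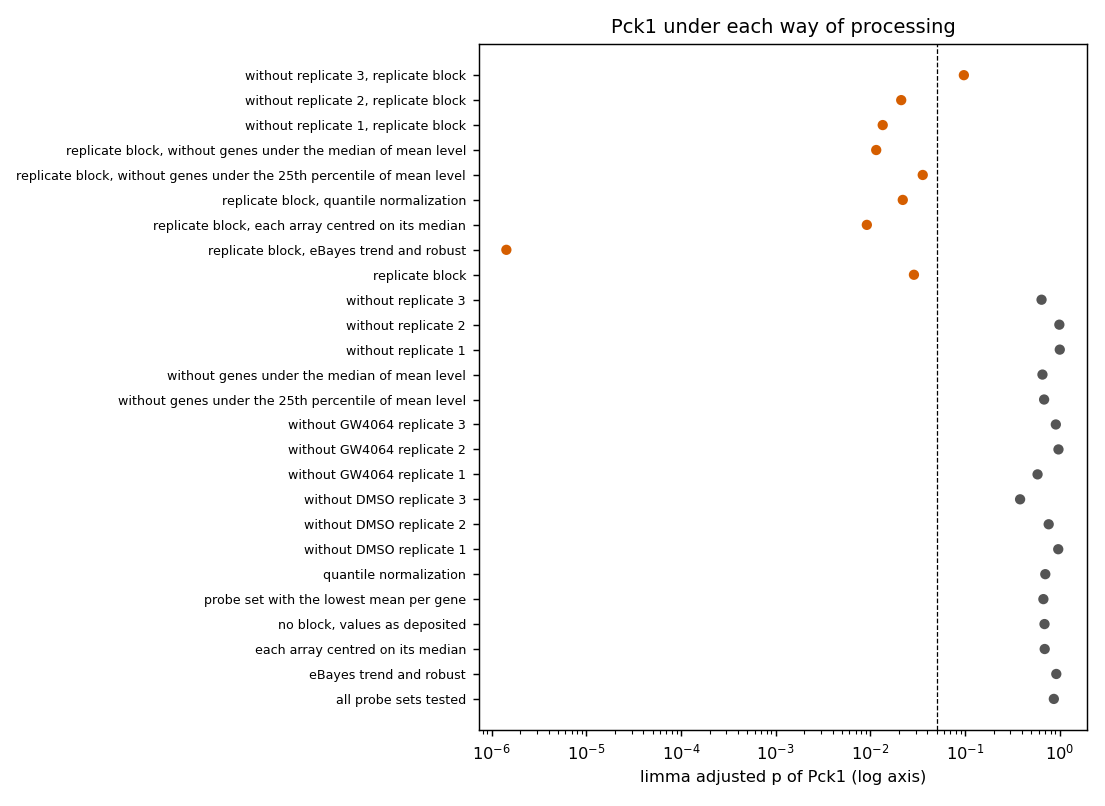
Limma adjusted p of Pck1 (log axis) under each way of processing, grey without and orange with the replicate block, with a dashed line at 0.05. All grey points lie at 0.381 or above, and 8 of 9 orange points lie below the line, the exception being the fit without replicate 3 (0.0970).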

How the data were processed

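The deposited values are log2 intensities of 41345 probe sets. The authors made them with RMA, and the submitters' processing notes list Partek too, with no version of either. Their range of 0.94 to 13.07 is that of RMA output, which is the basis for reading them as log2. The platform annotation gives 23521 probe sets exactly 1 symbol. For the 1082 genes with several of these, the one with the highest mean was kept. Titles gave each array its group and number. Differences were fitted over all 22180 genes with limma 3.58.1 (lmFit, eBayes) in R 4.3.3 without a block, with Benjamini-Hochberg adjustment over all genes, a threshold of 0.05 and 95% intervals from moderated standard errors. The script was tested on simulated data.

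Deviations of same-numbered arrays from the group means correlated at 0.26, 0.34 and 0.45, all above the 0.1 set as the rule for pairing. Arrays of different numbers gave -0.02 or less. Deviations from a group mean cancel within each group, so positive values for same-numbered arrays push the others to negative values. The negative values are thus no separate support for the pairing. By the rule, the fit with the replicate number as a block stands beside each result where it changes the call. The numbers come from the titles. Differences between members were tested with exact permutations (scipy 1.17.1). From each further list up to 3 genes with the smallest p were named, and for likeness the 5 most and 3 least correlated genes. A count of non-overlapping arrays or alike pairs has no test. Alternatives were 2 normalizations, 2 filters on dim genes, trended robust variances, other choices of probe sets, and arrays or pairs left out. The block combined with these was added after the data were seen. The members and lists were chosen with earlier results of these data known.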

Additional observations from a re-analysis of the deposited data

How the results depend on the processing

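Pck2, G6pc3, Ppargc1a, Foxo1 and Klf15 were lower under every alternative run. Their losses at an unadjusted p under 0.05 with single arrays left out are given above. With pairs left out, Pck2 and G6pc3 passed it in 0 of 3 limma fits, with and without the block. Without the block Ppargc1a, Foxo1 and Klf15 passed in 1, 1 and 2 of 3, and with it in 3, 2 and 3. Quantile normalization without the block lost Pck2 and G6pc3 (limma unadjusted p = 0.0670 and 0.0637), and centring lost G6pc3 (0.0525). Testing all probe sets lost Ppargc1a (0.0635), and the dimmer Foxo1 probe set gave 0.359. Without the block Pck1 too missed an unadjusted p of 0.05 with trended robust variances (limma unadjusted p = 0.0525) and without replicate 2 (0.0595). The count of genes called by limma was 11 without the block and 18 with the replicate block. It was 2 with all probe sets tested and 17 with trended robust variances. With the block it was 25 after centring each array, 22 after quantile normalization, 52 without genes under the median level and 338 with trended robust variances. With arrays or pairs left out it ran from 2 to 5 without the block, and with the block it was 13, 6 and 4 without replicates 1, 2 and 3. Pck1 passed with the replicate block at a log2 change of 1.80, also with either dim filter or trended robust variances, at 1.82 after centring and at 1.83 after quantile normalization. With the block it was 1.91, 1.60 and 1.89 without replicates 1, 2 and 3, and the last missed the threshold. Without the block it ran from 1.35 to 2.33 with arrays or pairs left out. The trended robust fit with the block also took Klf15, Ppargc1a and Foxo1 past the threshold (limma adjusted p = 0.00673, 0.0174 and 0.0317), and the cause was not tested.

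Signs turned in the 4 genes with changes near 0. With arrays or pairs left out and no block, G6pc ran from -0.38 to 0.60, Fbp1 from -0.14 to 0.25, Pcx from -0.020 to 0.096 and Slc37a4 from -0.15 to 0.14. In the blocked fits G6pc was -0.24 without replicate 1 and -0.056 without replicate 2, Fbp1 was -0.018 without replicate 2 and Slc37a4 was 0.14 without replicate 3. Slc37a4 became 0.014 after centring and 0.024 after quantile normalization, with and without the block. The differences between Pck1 and the other members, which all share the Pck1 values, kept their sign in every setting run. Signal over background was not used here, so low levels cannot be told from background.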
